A study of Mus musculus with 6 samples.

Results

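The genes described here are the 8 class I heavy-chain genes H2-K1, H2-D1, H2-Q4, H2-Q6, H2-Q7, H2-T22, H2-T23 and H2-T24, the light-chain gene B2m, and Nlrc5, the activator of their transcription. They were chosen by symbol, with earlier results of these data known, and are 10 of the 55359 rows of a gene count table. All 10 passed the filter on low counts and were tested among 11190 genes. The study compared C57BL/6 mouse bone marrow cells grown into myeloid-derived suppressor cells (MDSCs), immature myeloid cells that restrain T cells. Both groups were cultured for 4 days with 40 ng/ml of GM-CSF and 40 ng/ml of IL-6, after which a kit was used to isolate polymorphonuclear MDSCs. In the mtDNA group (3 libraries) mitochondrial DNA at 250 ng/ml was then delivered to the re-plated cells with a lipid transfection reagent for 12 h. The blank group (3 libraries) did not receive mtDNA, and the labels do not say whether it received the reagent. Effects of mtDNA and of the lipid reagent cannot be told apart here, and no group was given another DNA.

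A class I molecule is a heavy chain that pairs with the light chain beta-2-microglobulin and holds a short peptide, in most cases cut from proteins made inside the cell, for inspection by CD8 T cells and natural killer cells. The classical heavy chains of this mouse strain are H2-K1 and H2-D1, which vary widely between strains. The nonclassical chains of the Q and T regions vary less and have more specialised partners. Transcription of class I genes rises with type I and type II interferon. Nlrc5, a member of the NOD-like receptor family, has no DNA-binding domain of its own and acts through a protein complex on conserved promoter boxes, while NF-kB and interferon regulatory factors bind a separate upstream element.

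The promoters of 7 genes are shown because their letters differ between groups of class I genes, and H2-Q7 stands there also for its near copy H2-Q6. RefSeq promoters (build GRCm38.p6, from 250 bases before to 50 bases after the annotated start) matched 8 of the 10 genes, all but H2-T24 and Nlrc5. The stretches below run 5′ to 3′ on the gene's own strand and end at the base before the start, with the start of the shorter transcript used for H2-K1. Capitals mark the letters GGGATTCCC (a kappa B sequence), GAAANNGAA (the core of the interferon-stimulated response element, ISRE, also as TTCNNTTTC on the other strand) and CCAAT (the Y box bound by NF-Y, also as ATTGG). H2-K1 is chr17:34000334-34000473 on the minus strand and H2-D1 chr17:35262914-35263093 on the plus strand. H2-Q4 is chr17:35379437-35379616 and H2-Q7 chr17:35439005-35439154, both on the plus strand. H2-T22 is chr17:36042743-36042952 and H2-T23 chr17:36032702-36032841, both on the minus strand, and B2m, outside the MHC, is chr2:122147537-122147686 on the plus strand.
H2-K1: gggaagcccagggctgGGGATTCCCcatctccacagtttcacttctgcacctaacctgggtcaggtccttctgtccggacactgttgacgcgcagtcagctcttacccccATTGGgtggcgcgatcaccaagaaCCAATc
H2-D1: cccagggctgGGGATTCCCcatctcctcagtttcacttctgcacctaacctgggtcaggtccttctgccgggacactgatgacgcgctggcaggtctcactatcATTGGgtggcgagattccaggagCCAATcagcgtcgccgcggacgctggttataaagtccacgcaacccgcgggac
H2-Q4: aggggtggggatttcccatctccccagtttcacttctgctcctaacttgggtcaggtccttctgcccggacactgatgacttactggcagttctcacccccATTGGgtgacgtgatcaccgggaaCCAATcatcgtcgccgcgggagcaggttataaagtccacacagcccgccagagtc
H2-Q7: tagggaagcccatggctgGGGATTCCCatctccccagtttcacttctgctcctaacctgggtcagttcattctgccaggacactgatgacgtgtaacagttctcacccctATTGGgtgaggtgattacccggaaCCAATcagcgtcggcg
H2-T22: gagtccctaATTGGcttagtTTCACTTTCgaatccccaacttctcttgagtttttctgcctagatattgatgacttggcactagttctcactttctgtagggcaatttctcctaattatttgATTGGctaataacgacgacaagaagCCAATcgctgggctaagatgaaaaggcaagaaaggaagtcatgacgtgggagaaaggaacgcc
H2-T23: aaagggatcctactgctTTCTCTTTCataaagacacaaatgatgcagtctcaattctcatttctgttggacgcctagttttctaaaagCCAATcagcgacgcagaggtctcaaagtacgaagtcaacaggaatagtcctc
B2m: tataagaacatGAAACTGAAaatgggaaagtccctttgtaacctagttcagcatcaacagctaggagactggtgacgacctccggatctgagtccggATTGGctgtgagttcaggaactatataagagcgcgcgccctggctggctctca

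The kappa B letters were found in the promoters of H2-K1, H2-D1, H2-Q6 and H2-Q7, and in 0.353% of all 32851 promoter windows of that length. In H2-K1 the match began 124 bases before the start, in H2-Q7 132, in H2-D1 170 and in H2-Q6 172. The ISRE core letters were found in H2-T22, H2-T23 and B2m, 190, 123 and 139 bases before the start, and in 8.56% of all windows. Y box letters were in all 8 promoters, against 37.4% of all windows. H2-K1, H2-D1, H2-Q4, H2-Q6 and H2-Q7 each carried them once on each strand. A shorter form of the ISRE, AANNGAAA, added after the first search, was in all 8 promoters and in 23.9% of all windows. The letters TGACGTCA and TGACGCA, of the cyclic AMP response element and its relatives, were in none of the 8 windows and in 1.79% and 2.12% of all windows. The shorter letters TGACGC, also added after the first search, were in the windows of H2-K1, H2-D1 and H2-Q4 and in 7.4% of all windows. The motifs were searched on both strands, and a match describes letters, not a bound site. H2-K1, H2-D1 and the Q genes are close copies in this window: their 10 pairs were identical at 81.5% to 97.7% of aligned bases, with H2-Q6 and H2-Q7 the closest pair. Neither H2-T22 nor H2-T23 had the kappa B letters in its window, and none of H2-K1, H2-D1, H2-Q4, H2-Q6 and H2-Q7 had the ISRE core letters. These classical and Q genes did hold the shorter ISRE form, as TTTCACTT. The contrast in ISRE letters thus depends on the exact letters searched and does not show that these genes lack an ISRE. The same limit holds for the kappa B letters. H2-Q4 holds the similar letters gggatttccc in its stretch, which this search did not count.

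**Figure D1:**
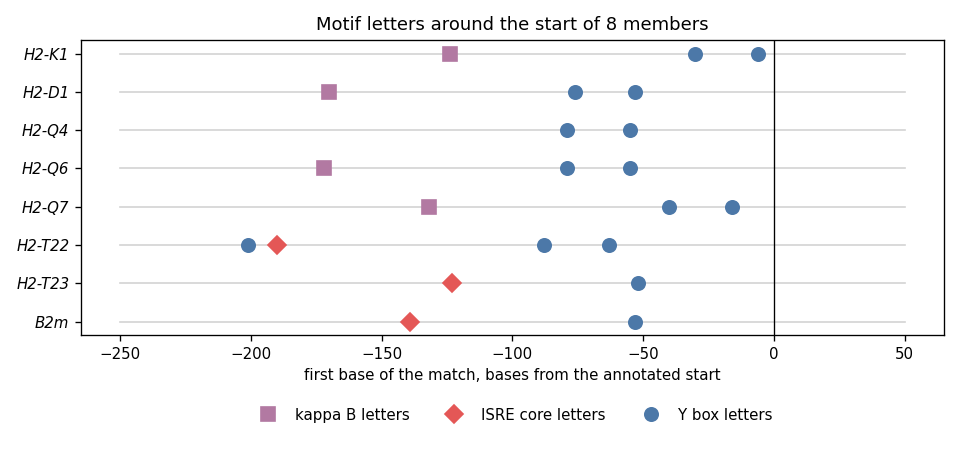
Position of motif letters around the annotated start of 8 genes, in bases from the start (0), one line per gene, each symbol at the first base of a match. Kappa B letters sit 124 to 172 bases upstream in H2-K1, H2-D1, H2-Q6 and H2-Q7, and ISRE core letters 123 to 190 bases upstream in H2-T22, H2-T23 and B2m. The shorter ISRE form, found in all 8 genes, is not drawn.

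Library totals ran from 4018360 to 4911103 reads. By these totals 1 read was worth 0.204 to 0.249 CPM (read counts scaled to a common library size). The CPM of genes given below are also scaled with TMM factors of 0.947 to 1.05, which shift these values slightly. Among 11190 tested genes, 1327 were higher and 669 lower with mtDNA at an edgeR adjusted p under 0.05. That split was 970 and 1504 with upper-quartile factors and 861 and 2356 with library totals. The median log2 fold change of all genes was -0.013, and -0.13 with library totals, so changes are read against that shift. Nothing in the labels says whether each library had its own mouse or culture, so the p-values reflect library-to-library spread that could be technical. The markers only partly matched the label. Ly6g, the surface antigen of neutrophils, had 4.87 ± 0.95 CPM in blank cells, the granule collagenase gene Mmp8 had 2545 ± 17.5, and Csf1r, the receptor of monocytes and macrophages, had 1424 ± 16.0 (SD, n = 3 libraries). Lymphocyte markers summed to 26.6 to 31.5 CPM over the 6 libraries, with Ncr1 and Gzma at 0 reads.

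Class I RNA was higher in the cells given mtDNA. Of the 10 genes 8 rose, 0 fell and 2, H2-Q6 and H2-Q7, did not pass the test, while 11.9% of all tested genes rose and 5.98% fell. The same count of 8 rose in DESeq2 and in a test against a fold of 1.2, where 8.64% and 5.27% of all tested genes rose. In the same 8 genes every mtDNA library lay above every blank library, which held for 17.9% of all tested genes. The median log2 fold change of the 10 genes was 0.90. H2-T22, H2-T23, H2-T24 and Nlrc5 rose at least 2-fold, as did 2.51% of all tested genes, and the other 4 rose by less. As a share of all reads in a library, the 10 genes took 0.344%, 0.339% and 0.343% in blank 1, 2 and 3 and 0.579%, 0.533% and 0.534% in mtDNA 1, 2 and 3. That share was 1.60-fold higher with mtDNA (exact permutation test, two-sided p = 0.1, the lowest value open to 3 libraries against 3). In bulk RNA, more cells of a type and more RNA per cell cannot be told apart.

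**Figure D2:**
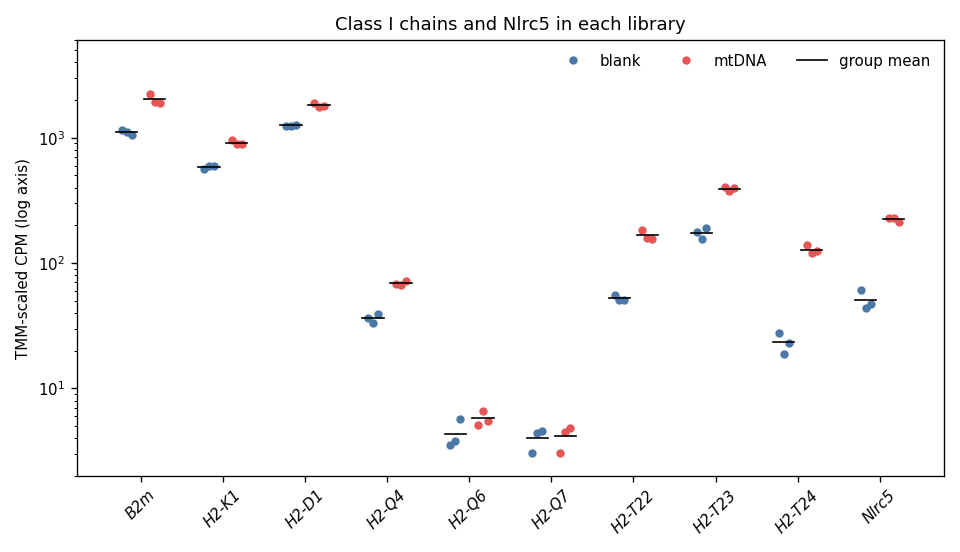
CPM of the 10 genes, scaled with TMM factors, on a log axis, with 1 point per library (blank blue, mtDNA red) and a line at each group mean. The groups are apart for 8 genes and overlap for H2-Q6 and H2-Q7, which stand between 3.06 and 6.64 CPM.

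The classical heavy chains were abundant in blank cells and rose less than the other 6 genes that rose. H2-D1 (ENSMUSG00000073411) stood at 1248, 1242 and 1274 CPM in blank 1, 2 and 3 and at 1894, 1763 and 1777 in mtDNA 1, 2 and 3, which is 0.53 ± 0.044 higher on the log2 scale (± SE, edgeR adjusted p = 5.09e-09). H2-K1 (ENSMUSG00000061232) stood at 559.9, 591 and 596 CPM in the blank and at 959, 888 and 893 in the mtDNA libraries, a log2 fold change of 0.65 ± 0.049 (edgeR adjusted p = 7.37e-10). For both genes mtDNA 1 was the highest library and the groups were apart. Among the 11190 genes, ordered by mean CPM without regard to length, H2-D1 moved from place 57 in blank cells to 34 with mtDNA, and H2-K1 from 199 to 112. The log2 ratio of H2-K1 to H2-D1 reads within a library, which does not depend on scaling between libraries, was -1.16, -1.07 and -1.10 in the blank and -0.98, -0.99 and -0.99 in the mtDNA libraries. H2-K1 thus gained on H2-D1 by a log2 difference of 0.12, with the groups apart (exact two-sided permutation p = 0.1, the smallest possible).

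B2m (ENSMUSG00000060802), the light chain that class I heavy chains share, rose more than either classical chain. It had 1157, 1116 and 1057 CPM in the blank libraries and 2245, 1931 and 1904 in the mtDNA libraries, a log2 fold change of 0.87 ± 0.057 (edgeR adjusted p = 6.18e-11). Library mtDNA 1 was well above the other mtDNA libraries, and without it the log2 fold change of B2m was 0.78. Summed over the 8 heavy-chain genes, the log2 ratio of heavy-chain to B2m reads was 0.87, 0.91 and 1.05 in the blank and 0.71, 0.81 and 0.85 in the mtDNA libraries. The groups were apart by a narrow margin, with a mean difference of -0.15 (exact two-sided permutation p = 0.1, the smallest possible). The difference was -0.10 without blank 3, and -0.30 with H2-K1 and H2-D1 alone as heavy chains. The exact two-sided permutation p was 0.2 without blank 3 or any single mtDNA library, and 0.1 without blank 1 or blank 2. On average, reads of the light chain rose more than the sum of heavy-chain reads, a difference that this test does not settle.

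The genes of the Q region did not move alike. H2-Q4 (ENSMUSG00000035929), which encodes a nonclassical chain, had 36.5, 33.3 and 38.9 CPM in the blank and 68.5, 66.8 and 72.4 in the mtDNA libraries (log2 0.94 ± 0.086, edgeR adjusted p = 2.04e-08). H2-Q6 and H2-Q7, which encode chains of the Qa-2 antigen, were thinly counted. H2-Q6 (ENSMUSG00000073409) had 15, 19 and 24 reads in blank 1, 2 and 3 and 20, 31 and 26 in mtDNA 1, 2 and 3 (log2 0.42 ± 0.26, edgeR adjusted p = 0.301). H2-Q7 (ENSMUSG00000060550) had 13, 22 and 19 reads in the blank and 12, 21 and 23 in the mtDNA libraries (log2 0.06 ± 0.28, edgeR adjusted p = 0.909). The groups of both genes overlapped. With SEs of 0.26 and 0.28, changes as small as these were not detectable, and the values do not show that the genes stayed level. Larger changes were detectable, since H2-T10, with 84 reads over the 6 libraries, passed the test. The sign of the H2-Q7 value changed with the scaling. With the reads of H2-Q6 and H2-Q7 summed to 1 row the log2 fold change was 0.26 (edgeR adjusted p = 0.422).

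Sequence shared between class I genes bears on these counts, since a read that fits several genes can be left out of them. Of the 75-base windows (the read length) of the longest transcript, 17.9% in H2-Q6 and 19.1% in H2-Q7 also occurred in a transcript of another gene, most often in H2-Q7 for H2-Q6 and in H2-Q10 for H2-Q7. H2-T22 shared 19.6% of its windows, most of them with H2-T10 (16.3% of its windows), while H2-Q4, H2-T23 and H2-D1 shared 7.22%, 7.01% and 6.90%. H2-K1 shared 1.33% and H2-T24 0.474%, and B2m and Nlrc5 shared none. These figures come from the GENCODE M21 transcripts, which do not name the Qa-2 genes H2-Q8 and H2-Q9, so sharing with them is not counted. The counts of H2-Q6, H2-Q7 and H2-T22 are therefore uncertain. H2-T22, H2-Q4 and Nlrc5 also overlap a gene on the opposite strand (A930015D03Rik over 1003, Gm11131 over 496 and 9330175E14Rik over 78 exon bases), and the strand setting of the counts is not given in the sources used here.

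The T region held the largest rises among the heavy chains. H2-T24 (ENSMUSG00000053835) had 27.8, 18.8 and 23.2 CPM in the blank and 139, 119 and 124 in the mtDNA libraries, a 5.51-fold rise (log2 2.46 ± 0.10, edgeR adjusted p = 2.85e-14). H2-T22 (ENSMUSG00000056116), whose product is bound by a subset of gamma-delta T cells, had 56.0, 50.9 and 50.6 CPM in the blank and 184, 159 and 157 in the mtDNA libraries (log2 1.66 ± 0.077, edgeR adjusted p = 1.68e-13). H2-T23 (ENSMUSG00000067212) encodes Qa-1, which shows leader peptides of other class I chains to the CD94/NKG2A receptor of natural killer cells. It had 178, 156 and 190.3 CPM in the blank and 408, 375 and 396 in the mtDNA libraries (log2 1.17 ± 0.064, edgeR adjusted p = 2.68e-12). Each of these genes had its groups well apart. The log2 ratio of their summed reads to those of H2-K1 and H2-D1 was -2.79, -3.02 and -2.82 in the blank and -1.96, -2.02 and -1.98 in the mtDNA libraries. The difference of 0.89 means that T-region reads rose 1.85-fold relative to classical reads (exact two-sided permutation p = 0.1, the smallest possible), in a ratio added after the values were seen, as were those of Nlrc5 to Ciita and of class I to class II chains. These p-values were not adjusted over the 5 ratios described here.

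Nlrc5 (ENSMUSG00000074151) rose 4.42-fold, second to H2-T24 among the 10 genes. It had 61.2, 43.7 and 47.0 CPM in the blank and 227, 227 and 214 in the mtDNA libraries (log2 2.14 ± 0.084, edgeR adjusted p = 1.87e-14). Blank 1 was the highest blank library, and the groups were far apart. Ciita, its relative that activates MHC class II genes, had a log2 fold change of 0.0094 ± 0.078 (edgeR adjusted p = 0.952), at 84.0 CPM in blank and 84.1 in mtDNA cells. Within libraries the log2 ratio of Nlrc5 to Ciita reads was -0.46, -0.92 and -0.85 in the blank and 1.64, 1.34 and 1.25 in the mtDNA libraries (exact two-sided permutation p = 0.1, the smallest possible). Ciita thus had more reads than Nlrc5 in each blank library and fewer in each mtDNA library. Among 14 tested genes of the NOD-like receptor family other than Nlrc5, 7 rose and 0 fell, while 11.9% of all tested genes rose. Their median log2 fold change was 0.21, and with library totals 4 rose and 1 fell, against 861 and 2356 of all 11190 genes. Nod1 and Nod2, sensors of bacterial cell wall fragments, rose by log2 0.89 ± 0.094 and 0.61 ± 0.091, and Naip5, a flagellin sensor, by 0.57 ± 0.085 (edgeR adjusted p = 2.3e-07, 2.76e-05 and 3.47e-05).

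**Figure D3:**
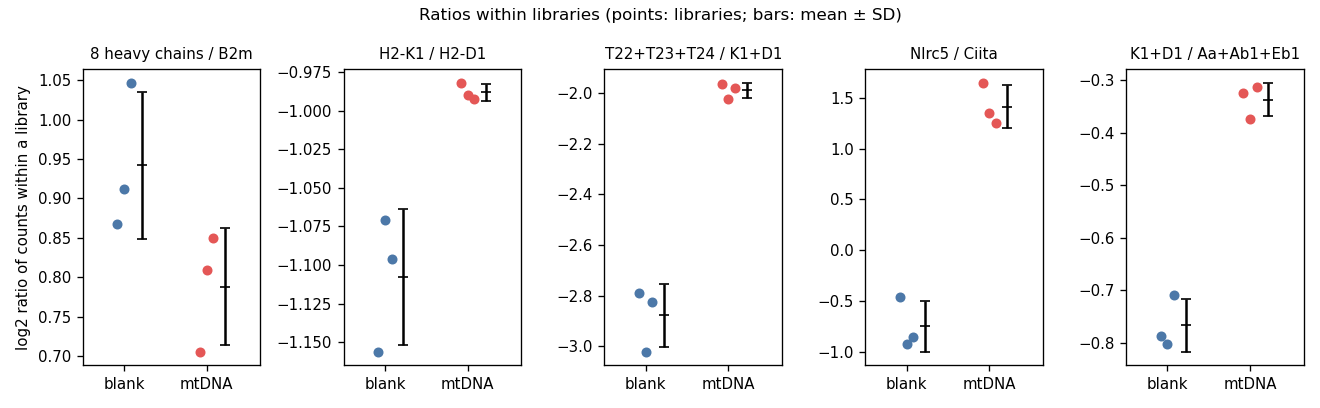
Log2 ratios of read counts within each library (points) with the group mean ± SD, for 5 pairs of genes or gene sums, each panel on its own scale. In all 5 panels the 3 blank and 3 mtDNA libraries are apart, with the smallest shift for H2-K1 to H2-D1 (0.12) and the largest for Nlrc5 to Ciita (2.16).

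Per kilobase of the longest transcript, the level of B2m was the highest in both groups, at 1291 ± 58.7 CPM per kb in blank and 2356 ± 221 in mtDNA cells (SD, n = 3). H2-D1 followed at 597 ± 8.24 and 862 ± 34.3, H2-K1 at 311 ± 10.4 and 487 ± 21.2, and H2-T23 at 66.1 ± 6.58 and 149 ± 6.28. Below these the order differed between the groups. In blank cells it was H2-T22 (17.2), H2-Q4 (14.0), H2-T24 (10.7) and Nlrc5 (6.68), and the libraries of neighbours did not overlap. With mtDNA it was H2-T24 (58.5) and H2-T22 (54.4), whose libraries overlapped, before Nlrc5 (29.4) and H2-Q4 (26.7). H2-Q6 (2.09 and 2.76) and H2-Q7 (0.95 and 0.98) came last in both groups. With the merged length of all exons in place of the longest transcript, H2-T22 and H2-Q4 overlapped in blank cells, and H2-Q4 and Nlrc5 changed places with overlap in mtDNA cells. The transcript that the cells used was not measured, so the order is approximate.

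**Figure D4:**
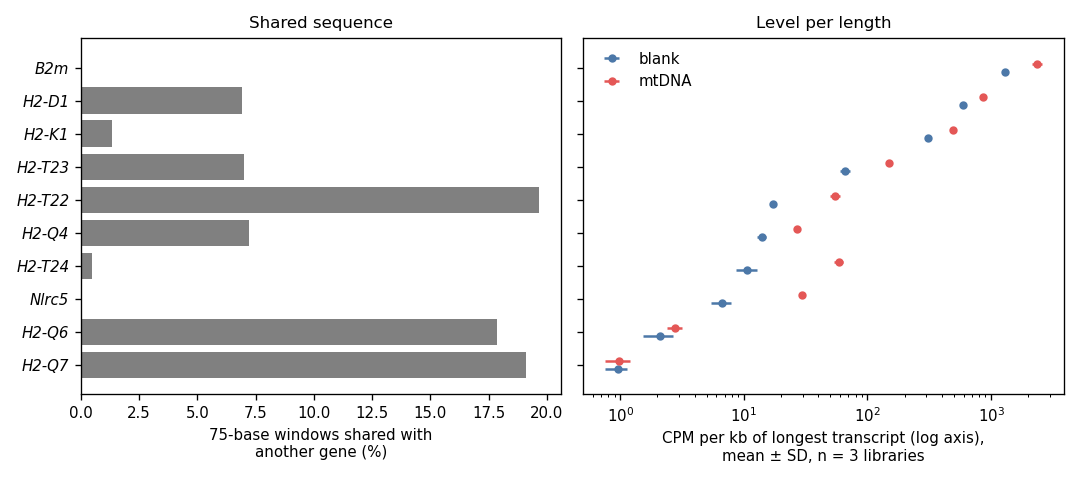
Left, percent of 75-base windows of each gene's longest transcript found in another gene's transcript; right, CPM per kb of that transcript on a log axis, mean ± SD of 3 libraries per group. The order from top to bottom is that of the blank level, led by B2m at 1291 CPM per kb.

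Other class I chains, from a list of 21 symbols of which 16 were in the table, were mostly silent. Of these 16, 8 had 0 reads in all libraries and 6 were tested. Of the 6, 3 rose and 0 fell, with a median log2 fold change of 0.51, while 11.9% of all tested genes rose. H2-M3, which presents bacterial peptides that begin with formylmethionine, rose from 22.7 ± 1.25 to 36.7 ± 4.35 CPM (SD, n = 3; log2 0.68 ± 0.11, edgeR adjusted p = 0.000109). H2-T10, the neighbour and close copy of H2-T22, went from 1.69 ± 0.29 CPM in blank to 4.61 ± 1.03 in mtDNA cells, a rise of log2 1.41 ± 0.33 (edgeR adjusted p = 0.00388), and 14.3% of its windows are shared with H2-T22. H2-K2, a transcribed pseudogene, rose by log2 0.77 ± 0.15 (edgeR adjusted p = 0.000557).

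Genes that supply and load class I peptides were higher in 14 of 18 tested cases and lower in none. Among all tested genes 11.9% rose. The median log2 fold change of the 18 was 0.46. With library totals 10 of the 18 rose, as did 861 of all 11190 genes. Against a fold of 1.2, 9 of the 18 rose, as did 590 of all genes. Tap1, a subunit of the peptide transporter, had 127 ± 9.75 CPM in blank and 410 ± 22.3 in mtDNA cells (log2 1.70 ± 0.063, edgeR adjusted p = 9.51e-15). Tapbp, the chaperone that joins the transporter to the heavy chain, rose by log2 1.24 ± 0.069, and Psmb9, an interferon-inducible proteasome subunit, by 1.23 ± 0.075 (edgeR adjusted p = 3.58e-12 and 2.24e-11). Ide, an endopeptidase, had the lowest value, at log2 -0.034 ± 0.077 (edgeR adjusted p = 0.814).

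Factors known at class I promoters included 12 risen and 0 fallen genes among 25 tested, while 11.9% of all tested genes rose. Their median log2 fold change was 0.17. With library totals 6 rose and 2 fell, against 861 and 2356 of all 11190 genes. With upper-quartile factors 7 of the 25 rose, and by DESeq2 8 rose. Left out singly, blank 2 brought the count to 8, the lowest of the 6 omissions. Interferon regulatory factors were among those that rose. Irf7, a regulatory factor of the interferon response, rose 13.2-fold, and Irf1, another factor of that family, 2.67-fold (log2 3.72 ± 0.18 and 1.42 ± 0.063, with adjusted p of 4.44e-13 and 1.07e-13 in edgeR). Subunits of the complex through which Nlrc5 acts had smaller values, and 1 of 6 passed. Rfx5, a subunit of the complex on the X box, had log2 0.35 ± 0.11 (edgeR adjusted p = 0.0335), and its partners Rfxank and Rfxap had -0.11 ± 0.14 and -0.30 ± 0.19 (edgeR adjusted p = 0.653 and 0.326). The Y box subunits Nfya, Nfyb and Nfyc had values of 0.021 to 0.12, with edgeR adjusted p of at least 0.525. Of the NF-kB subunits, Nfkb1 rose by log2 0.19 ± 0.051 (edgeR adjusted p = 0.0121), while Relb (0.17 ± 0.068), Nfkb2 (0.11 ± 0.063) and Rela (-0.065 ± 0.064) did not pass (edgeR adjusted p = 0.0957, 0.268 and 0.548). For Nfkb1, Relb and Nfkb2 every mtDNA library lay above every blank library.

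MHC class II genes, which present peptides to CD4 T cells, gave 3 rises and 0 falls in 12 tests. Among all tested genes 11.9% rose. The median log2 fold change of the 12 genes was 0.087, which became -0.033 with library totals. Ctss, a protease of the class II pathway, rose by log2 0.51 ± 0.048 (edgeR adjusted p = 3.76e-08). The chain genes H2-Aa (log2 0.17 ± 0.046) and H2-Eb1 (0.15 ± 0.046) rose less, with adjusted p of 0.0146 and 0.0262 in edgeR. These calls were lost in the test against a fold of 1.2, with upper-quartile factors (adjusted p = 0.173 and 0.262), with library totals (0.441 and 0.623), without blank 3 (0.0831 and 0.112) and without mtDNA 1 (0.0559 and 0.0787). That of H2-Eb1 was also lost without mtDNA 2 (0.0945). The log2 ratio of summed H2-K1 and H2-D1 reads to summed H2-Aa, H2-Ab1 and H2-Eb1 reads was -0.79, -0.80 and -0.71 in the blank and -0.32, -0.37 and -0.31 in the mtDNA libraries. Summed over these genes, class II chains thus had more reads than classical class I chains in all 6 libraries. The margin was smaller with mtDNA (exact two-sided permutation p = 0.1, the smallest possible). The sums hold unequal numbers of genes and were not scaled by length, so they do not rank single chains.

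**Figure D5:**
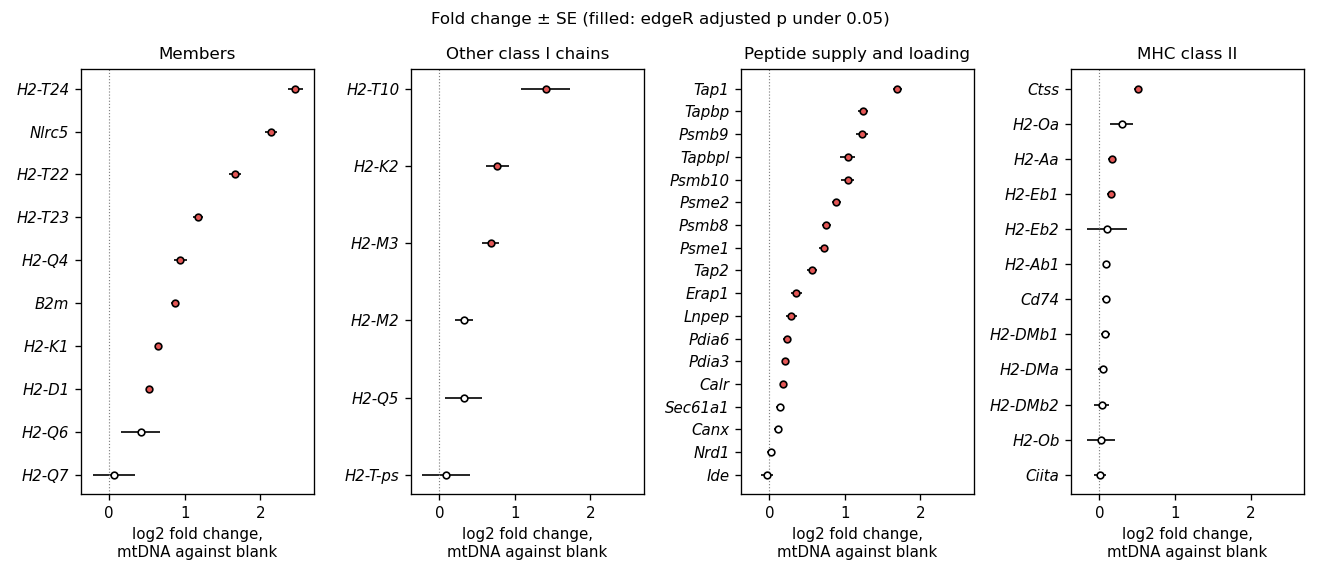
Log2 fold change of mtDNA against blank libraries with its SE, for the 10 genes, other class I chains, genes of peptide supply and loading, and MHC class II genes; filled points have an edgeR adjusted p under 0.05. H2-T24 is the highest of the 10 genes at 2.46, Tap1 of the loading genes at 1.70 and Ctss of the class II list at 0.51.

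Some markers of monocytes and macrophages were also higher with mtDNA. Of 12 tested markers 7 rose, 0 fell and 5 did not pass, while 11.9% of all tested genes rose. The summed level of these markers was 3102 to 3221 CPM in the blank and 4080 to 4304 in the mtDNA libraries. Ly6c2, with means of 538 CPM in blank and 968 in mtDNA cells, gained the most CPM. The median log2 fold change of the 12 markers was 0.19, against 0.90 for the 10 genes described here. On the log2 scale Fcgr1 (2.54 ± 0.10), an Fc receptor, and Mertk (1.07 ± 0.090), a receptor for dying cells, rose most (edgeR adjusted p = 2.78e-14 and 5.91e-09). Csf1r (0.12 ± 0.042) and Adgre1 (0.094 ± 0.048) had small values. No marker of this list was at 0 reads. The count of 7 fell to 4 without blank 3, and was 4 with upper-quartile factors, with library totals and in DESeq2, and 3 against a fold of 1.2. Neutrophil markers rose in 1 of 12 (Ngp), with summed levels of 7924 to 8341 and 8260 to 8891 CPM in blank and mtDNA libraries. With upper-quartile factors 0 of these rose and 2 fell, and with library totals 0 rose and 4 fell. Of all 11190 genes 1504 and 2356 fell in these settings. No neutrophil marker rose without blank 1, blank 3 or mtDNA 1, and 2 rose without blank 2. Dendritic cell markers rose in 1 of 7 (Dpp4), at 747 to 764 and 789 to 794 CPM, markers of eosinophils, basophils and mast cells in 1 of 9 (Mcpt8), at 261 to 280 and 301 to 311 CPM, and lymphocyte markers in 0 of 5. No dendritic cell marker passed without blank 1, blank 2 or mtDNA 3, in DESeq2 or against a fold of 1.2. No marker of the eosinophil, basophil and mast cell list passed without mtDNA 2, with upper-quartile factors or with library totals. That list also had 0 calls in DESeq2 and against a fold of 1.2. In limma-voom and with robust fitting 2 dendritic cell markers rose. With neighbouring title numbers as a block, 2 rose in both of these lists. The part of any of these cell types in the class I result was not tested.

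The genes whose profile over the 6 libraries lay nearest to that of a member were sought among 8759 genes with a mean of at least 10 CPM, by the distance between centred log2 CPM values. Nearest to Nlrc5 were Parp12, an ADP-ribosyltransferase (distance 0.16), Znfx1, an RNA helicase (0.18), and Daxx, a histone chaperone (0.25), with log2 fold changes of 2.22, 2.03 and 2.10. B2m was closest to Ly6c2 (0.049), a monocyte surface antigen, Tmem106a (0.091) and Cd180 (0.11), a Toll-like receptor relative. For H2-K1 the nearest were P4ha1 (0.090), a collagen prolyl hydroxylase subunit, Rgl1 (0.10) and Rmdn3 (0.11). The distance rests on 6 libraries in 2 groups, so it mainly ranks genes by the size of their change.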

How the data were processed

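The 6 libraries were made from poly(A) RNA with a directional kit and read from one end over 75 bases, per the labels. The authors deposited 1 table of raw counts, whole reads per gene. Per the submitters' processing notes STAR 2.7.10a, GRCm39, FastQC and DESeq2 were used, and per the file headers the columns are STAR's reads per gene. Annotation release and strand setting: not given in the sources used here.

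Symbols came from GENCODE M21 (GRCm38), which matched 52083 of 55359 IDs and 182 of the 192 listed symbols. Genes were compared with edgeR 4.0.16 (R 4.3.3): default filter, TMM factors (0.947 to 1.05), two-sided quasi-likelihood test, Benjamini-Hochberg adjustment over 11190 genes. CPM are TMM-scaled; fold changes are mtDNA minus blank. Single values per library were compared by exact permutation over the 20 assignments. No pair of libraries in a group agreed within counting noise (chi-square over its degrees of freedom was 1.54 to 2.28). Tests were first run on simulated data.

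The members and lists were chosen with earlier results of these data known. The text names all members, up to 3 risen and 3 fallen genes per list by smallest p, and the 3 nearest profiles of Nlrc5, H2-K1 and B2m, and 1 gene this rule names is not reported here; Ciita, Ide, Mr1, Cd1d1, Hfe, the X and Y box and NF-kB subunits, the class II chains of the ratio and the cell markers were chosen after their values were seen. Alternatives were other scaling factors, filters, DESeq2 1.42.0, limma-voom (limma 3.58.1), robust fitting, a test against a fold of 1.2, a block, summed Q rows and omission of each library. Shared windows and motifs were counted with Python 3.11.15. Intervals of counting error are not given, since replicates show the spread.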

Additional observations from a re-analysis of the deposited data

How the results depend on the processing

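The 8 rises kept their direction and passed in all 17 alternatives, DESeq2 and each omission of a library included, and the ratios and the share of reads kept their direction in each of the 6 omissions. Log2 fold changes ranged from 0.41 to 0.55 for H2-D1, 0.53 to 0.67 for H2-K1, 0.75 to 0.91 for B2m, 0.82 to 0.99 for H2-Q4, 1.05 to 1.24 for H2-T23, 1.54 to 1.71 for H2-T22, 2.02 to 2.30 for Nlrc5 and 2.32 to 2.61 for H2-T24. H2-Q6 did not pass in any (0.26 to 0.65, the highest without blank 3). H2-Q7 was not called either and turned to -0.012 with upper-quartile factors and -0.054 with library totals, and ranged from -0.088 to 0.22 over omissions of a library. Counts over all genes moved more: 1504 fell with upper-quartile factors, 861 rose and 2356 fell with library totals, 217 fell in DESeq2, and 590 rose and 55 fell against a fold of 1.2. Over omissions of a library 1097 to 1191 rose and 410 to 522 fell (410 without blank 3, 437 without mtDNA 1). The labels share no replicate numbers. With neighbouring title numbers as a replicate block, 8 members, 1387 genes higher and 747 lower were called, and deviations of these pairs correlated at 0.068 to 0.11. The call of Klra2 ended in DESeq2 (adjusted p = 0.0698), against a fold of 1.2 (0.116) and without blank 2 (0.0641) or mtDNA 2 (0.0529), and that of Pirb against a fold of 1.2 (0.979). The SEs of H2-Q6 and H2-Q7 (0.26 and 0.28), at 3.06 to 6.64 CPM, were the largest of the 10 genes.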

Other observations

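Some receptors that bind class I molecules were also detected in these libraries. Of 18 listed symbols 14 had a row, and only 5 of these passed the filter on low counts. Klra1 was at 0 reads. Of the 5 tested genes 3 rose and 0 fell, while 11.9% of all tested genes rose. Pirb, the inhibitory paired immunoglobulin-like receptor of myeloid cells, rose from 455 ± 20.2 to 548 ± 14.0 CPM (SD, n = 3; log2 0.27 ± 0.050, edgeR adjusted p = 0.000404). Klra2, of the Ly49 family, rose by log2 0.55 ± 0.15 (edgeR adjusted p = 0.00969), and Klrk1, which encodes NKG2D, from 3.77 ± 0.68 to 9.99 ± 2.31 CPM (log2 1.43 ± 0.24, edgeR adjusted p = 0.000137).

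Of 7 tested genes for molecules with a class I-like fold, 0 rose and 1 fell, against 11.9% and 5.98% of all tested genes. Their median log2 fold change was -0.12. Ulbp1, a ligand of NKG2D, fell from 45.2 ± 2.91 to 31.1 ± 2.42 CPM (log2 -0.55 ± 0.098, edgeR adjusted p = 0.000259), with the groups apart. With upper-quartile factors, with library totals or without mtDNA 2, 2 of the 7 fell. Mr1, Cd1d1 and Hfe, which present vitamin metabolites and lipids and take part in iron control, had log2 0.046 ± 0.15, -0.032 ± 0.12 and -0.12 ± 0.12 (edgeR adjusted p = 0.878, 0.889 and 0.550).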
